A study of Mus musculus with 24 samples.

Results

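Splenic NK cells taken from mice on day 9 after injection of RMA lymphoma cells were compared with those taken on day 4. The members were chosen by title, 3 libraries named RMA Late D+9 and 3 named RMA Intermediate D+4, which makes 6 of the 24 libraries of the series. The comparison asks what of the state present at day 4 was kept, gained or lost at the later day, when the NK cells are dividing. The study injected lymphoma cells intravenously into WT C57BL/6J mice, female and 7 to 9 weeks old unless its methods say otherwise, and sorted splenic NK cells as NKp46+ or NK1.1+ cells without CD3, CD5 or either T cell receptor. RMA is a mouse T lymphoma line that carries ZsGreen. RMA-KR was derived from it by deleting B2m and adding Rae1-β, a ligand of the activating receptor NKG2D, and was cloned, so it stands for 1 clone. Set beside the 3 libraries of each RMA day are 4 control libraries from mice labelled as not treated, and 5 RMA-KR libraries from day 7 and 3 from day 14. Mice in which the tumor did not grow had been left out by the study. The labels do not say that each library is a separate animal, so the p-values measure the spread between libraries.

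NK cells are innate lymphocytes that kill infected and transformed cells with perforin and granzymes, and they weigh signals from activating and inhibitory receptors, many of them encoded side by side in the NK gene complex. Lymphocytes that leave rest first switch on E2F target genes for DNA replication and later, in G2, a set of genes for mitosis whose promoters often hold a CCAAT box and a cell cycle homology region (CHR). Type I interferon acts on the same cells and switches on genes whose promoters often hold the interferon-stimulated response element (ISRE).

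Counts were compared for 17097 of 45237 listed genes, and levels are given as normalized CPM, counts scaled to library size. The 6 libraries held 11817151, 10955743 and 9212393 counts at day 4 and 12427430, 11491734 and 9806287 at day 9. The NK label held in each of them: 12 of 12 NK markers had counts, and their summed count was 413200, 314637 and 310308 at day 4 and 486214, 452343 and 336775 at day 9, with granzyme A (Gzma) the most abundant. Of 12 T cell markers, Cd4 and Cd8a had 0 counts at day 4 and at most 1 in a library at day 9. Others had counts: Cd3g 43 to 212, Cd3d 44 to 200, Trac 78 to 188 and Trbc1 1575 to 4337 in the 6 libraries, and the 12 summed to 3155 to 8016. Day 9 replicate 3 stood apart from its group. It had counts in 24234 genes, against 15263 and 19436 in replicates 1 and 2 and 15289 to 18247 at day 4, and on the first principal component it lay at -7.94, against 91.3 and 58.4. Results that rest on it are given with and without it.

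Genes of cell division stood above control at both days. Over 85 genes of G2 and mitosis the median log2 fold change against control was 3.28 at day 4 and 3.30 at day 9, and over 54 genes of DNA replication it was 2.16 and 1.82. Genes of DNA replication, interferon-stimulated genes and ribosome biogenesis genes had lower medians at day 9 than at day 4, and NK receptor genes, oxidative phosphorylation subunits and proteasome subunits had higher ones. Without day 9 replicate 3 the first 3 medians were nearer 0. Set against the SD between replicates, the steps of the replication (-0.27, SD 0.44), ribosome biogenesis (-0.17, SD 0.23), oxidative phosphorylation (0.19, SD 0.23) and proteasome (0.21, SD 0.23) lists lay within it. No single gene passed the test between the days. With edgeR, 0 of 17097 genes (0%) were called (more than 2-fold at an adjusted p below 0.05), the smallest adjusted p being 0.901. At an unadjusted p under 0.05 there were 763 genes (4.46% of those tested), 527 of them higher and 236 lower at day 9. Among the 12314 tested genes with a mean count of at least 10, these were 230 higher and 195 lower. Fitted on the 6 libraries alone, edgeR called 0 genes and gave 875 of 11463 genes an unadjusted p under 0.05. Leaving out 1 of these 6 gave 590 of 12280 to 1424 of 11931. DESeq2 called 42 genes with its default settings, of which 39 were at or under 3 counts per library in 1 of the days. It called 53 on the 6 libraries alone, a setting chosen after seeing the data, with 18 at that floor. With betaPrior=TRUE it called 0, and 469 of 44723 genes had an unadjusted p under 0.05. The 95% interval lay within a 2-fold change either way for 4301 genes (25.2%), and for the others a change of more than 2-fold is not shut out by the interval.

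**Figure D1:**
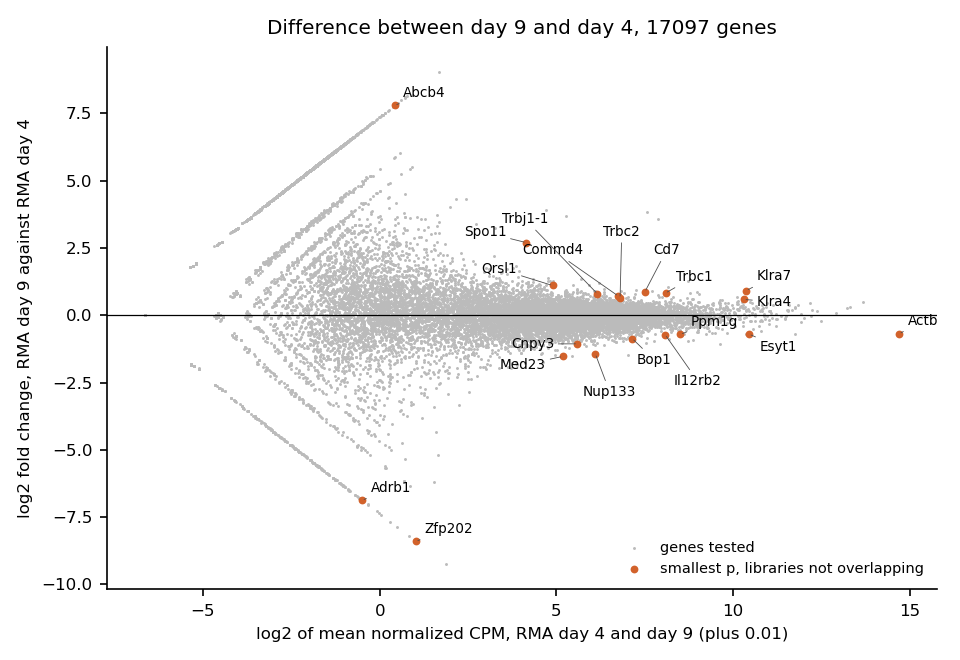
Log2 fold change of RMA day 9 against RMA day 4 on the y axis, against the log2 mean normalized CPM of the 6 libraries on the x axis, for 17097 genes. The 20 named points had the smallest unadjusted p among genes whose 3 and 3 libraries do not overlap, and Abcb4, Zfp202 and Adrb1 have a day with 0 counts in each library, so their fitted values are not bounds.

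Against control, 282 genes (1.65%) were called at day 4, 216 up and 66 down, and 306 (1.79%) at day 9, 243 up and 63 down. Both comparisons use the same 4 control libraries, so their values are only set side by side. Control replicates 1 and 4 had counts in 23111 and 27820 genes and lay at -76.8 and -80 on the first principal component. Replicates 2 and 3 had counts in 19370 and 19446 genes and lay at -2.46 and -8.12. Replicate 1 held 5138651 counts in total, the fewest of the controls. Among the 216 genes called up at day 4, the median log2 fold change against control was 2.09 at day 4 and 1.87 at day 9, and the median step from day 4 to day 9 was -0.10, against 0.07 over all genes tested. For 88 of the 216 the 95% interval of that step lay within a 2-fold change, and 5 had an unadjusted p under 0.05. Among the 66 genes called down at day 4 the medians were -1.46 and -1.15, with a median step of 0.33, 27 intervals within a 2-fold change and 15 genes with an unadjusted p under 0.05, where 4.46% of all genes had one. By the rule for gain and loss, which asks for a call between the days as well as against control, 0 genes were gained and 0 were lost. Leaving out 1 library gave 166 to 226 calls at day 4, with 166 and 176 without its replicates 3 and 2 and 175 without control replicate 1 or 4. At day 9 it gave 127 to 457, with 127, 161 and 457 without its replicates 2, 1 and 3 and 193 and 191 without control replicates 1 and 4. Genes chosen for their value at day 4 had to lie far from control there, so the medians are a description only.

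**Figure D2:**
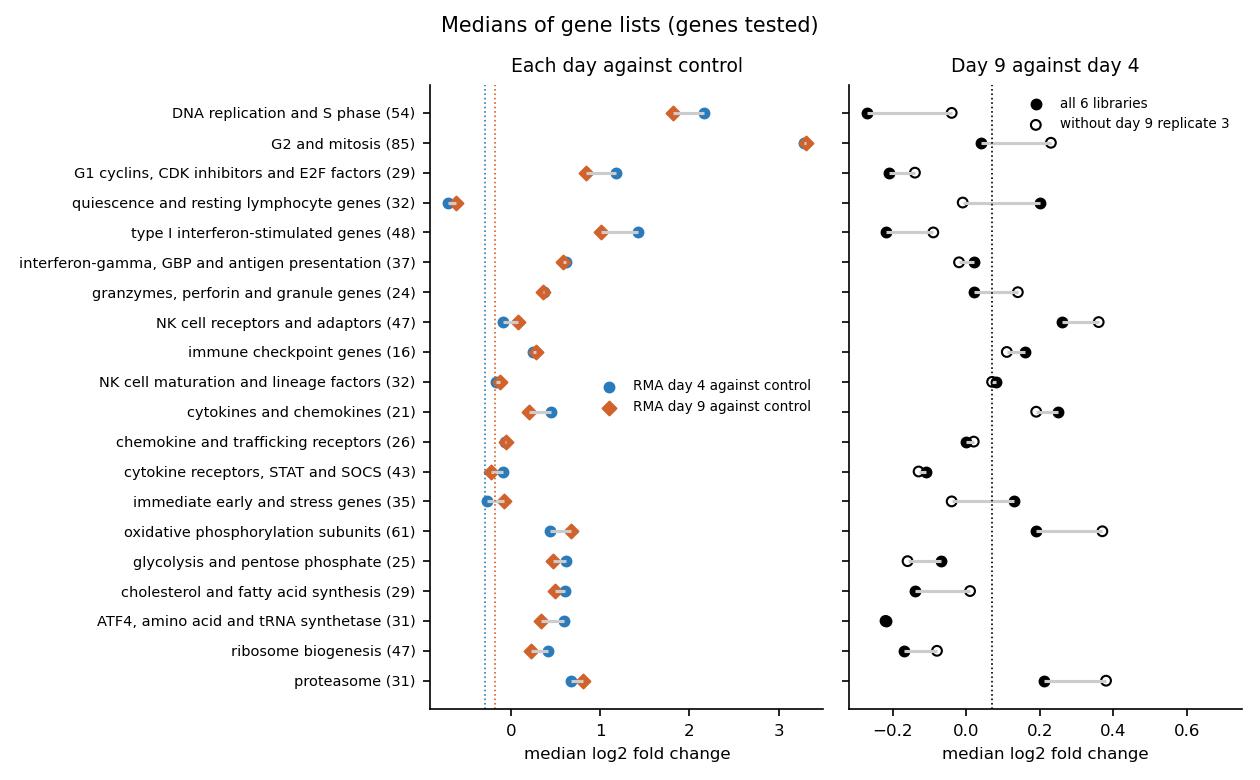
Median log2 fold change of each gene list, with the number of genes tested in parentheses. The left panel shows each day against control, and the right panel shows day 9 against day 4 with all 6 libraries (filled) and without day 9 replicate 3 (open); dotted lines are the medians over all genes tested.

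Mitotic genes were high at both days. Their summed level was 8785, 11410 and 10600 CPM in the 3 libraries at day 4 and 9952, 12250 and 7424 CPM at day 9, and the 4 controls lay at 1473 to 2545 CPM. The days overlapped, and each tumor library lay above each control. Called against control were 50 of the 85 genes at day 4 (1.26% of all genes were called up) and 53 at day 9 (1.42%). Between the days the list's median was 0.04, with 48 genes higher and 37 lower. Without day 9 replicate 2 the median was -0.20, and without day 9 replicate 3 it was 0.23, with 61 higher and 24 lower. Wholly above day 4 were 2 genes (2.35%) with all libraries, against 5.25% of all genes, and 27 (31.8%) without day 9 replicate 3, against 12%. Wholly below day 4 were 4 (4.71%) in both cases, against 5.55% and 11%. In bulk RNA, fewer cells of a kind and less RNA per cell cannot be told apart.

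Kif22, a kinesin that moves chromosomes on the spindle (chr7:127027729-127042471, mm10), was at 154, 187 and 204 CPM at day 4, at 227, 209 and 184 CPM at day 9 and at 12.1 to 33.6 CPM in controls. The days overlapped, and the lowest tumor library was above the highest control. It rose by 3.12 (log2, SE 0.40) at day 4 and by 3.30 (SE 0.40) at day 9 against control, and the step between the days was 0.18 with a 95% interval of -0.66 to 1.02. Mad2l1, of the spindle checkpoint, was at 132, 139 and 129 CPM and then at 142, 215 and 108 CPM, with a step of 0.21 (95% interval -0.51 to 0.94; 0.42 without replicate 3). Plk1, the kinase that drives entry into mitosis, measured 122, 156 and 149.5 CPM and then 83.2, 129 and 79.4 CPM, against 1.83 to 13.7 CPM in controls, a step of -0.55 (95% interval -1.77 to 0.66). The libraries of the 2 days overlapped for both genes. Cenpa, the histone of the centromere, was the only one of the mitotic genes named by the rule whose day 9 libraries all lay above day 4: 203, 194 and 142 CPM against 106, 126 and 105 CPM, a step of 0.68 (SE 0.35). Mki67, which encodes the proliferation antigen Ki67, was at 267, 358 and 266 CPM and at 314, 328 and 260.5 CPM, a step of 0.02 with a wide 95% interval of -1.77 to 1.81.

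Promoters of these lists are printed because many of their members were called against control. RefSeq promoters (GRCm38.p6, 250 bases before to 50 after the start) were at hand for 11433 of the 17097 genes tested. On either strand, CHR was searched as TTTGAA, the CCAAT box as CCAAT, the E2F motif as TTTCCCGC or TTTGGCGC and the ISRE as GAAA, any 2 letters and GAAA. Of 70 mitotic promoters, 48 (68.6%) held the CHR and 50 (71.4%) the CCAAT box, against 13.2% and 38.8% of all promoters, and 40 (57.1%) held both, against 5.43%. Kif22 (chr7:127042371-127042670 on the minus strand) and Plk1 (chr7:122159185-122159484 on the plus strand) hold both, shown in capitals, which mark either strand's form. A match is a description of the letters, not a site.
Kif22: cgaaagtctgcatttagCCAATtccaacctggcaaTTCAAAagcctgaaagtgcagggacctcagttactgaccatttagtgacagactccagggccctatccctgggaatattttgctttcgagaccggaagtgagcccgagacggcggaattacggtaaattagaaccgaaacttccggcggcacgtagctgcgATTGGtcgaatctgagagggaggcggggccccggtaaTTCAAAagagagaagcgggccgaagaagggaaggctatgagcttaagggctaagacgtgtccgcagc
Plk1: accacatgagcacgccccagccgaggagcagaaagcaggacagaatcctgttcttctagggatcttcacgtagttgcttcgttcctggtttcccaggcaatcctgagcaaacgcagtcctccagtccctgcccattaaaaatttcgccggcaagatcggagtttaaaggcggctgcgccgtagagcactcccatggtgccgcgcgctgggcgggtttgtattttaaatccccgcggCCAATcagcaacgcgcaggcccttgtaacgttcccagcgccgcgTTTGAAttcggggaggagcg

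Replication genes lay on the lower side at day 9. Their summed level was 9065, 13410 and 10460 CPM at day 4 and 9182, 11270 and 5639 CPM at day 9, with the controls at 2852 to 3182 CPM. The days overlapped, and the lowest value was that of day 9 replicate 3. Of 54 genes, 28 were called up against control at day 4 and 19 at day 9 (1.26% and 1.42% of all genes). Between the days 44 of 54 were lower, with a median of -0.27, and 5 (9.26%) had 3 and 3 libraries that did not overlap, all lower, against 5.55% of all genes. Without day 9 replicate 2 the median was -0.53. Without day 9 replicate 3 it was -0.04 and 28 of 54 were lower, so the lean of the list rests on that library.

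Asf1b, a histone chaperone at the replication fork, was at 268, 369 and 284 CPM at day 4 and at 339, 366 and 157 CPM at day 9, against 25 to 62.4 CPM in controls. Replicate 3 of day 9 was the lowest of the 6, and the days overlapped. It rose against control by 3.00 at day 4 and 2.90 at day 9 (log2), and the step was -0.10 (95% interval -0.88 to 0.69; 0.20 without replicate 3). Rrm2, of ribonucleotide reductase, measured 298, 444 and 327 CPM and then 324, 378 and 167 CPM, a step of -0.30 (95% interval -1.39 to 0.79; -0.02 without replicate 3). Mcm6, of the replicative helicase, was at 757, 1249 and 1002 CPM and 993, 1106 and 603 CPM, a step of -0.15 (95% interval -0.78 to 0.47; 0.07 without replicate 3). In each of these genes the days overlapped and replicate 3 was the lowest of the 6 libraries. Uhrf1, which carries DNA methylation through replication, had the lowest step among the genes called up at day 4: 211, 373 and 271 CPM did not overlap with 137, 192 and 113 CPM, a step of -0.95 (95% interval -2.61 to 0.70) that did not pass the test. Of 41 replication promoters, 14 (34.1%) held an E2F motif, against 2.96% of all promoters. Mcm6 (chr1:128359656-128359955 on the minus strand) and Dtl, of a ubiquitin ligase that clears licensing factors (chr1:191575495-191575794 on the minus strand), are shown with it in capitals.
Mcm6: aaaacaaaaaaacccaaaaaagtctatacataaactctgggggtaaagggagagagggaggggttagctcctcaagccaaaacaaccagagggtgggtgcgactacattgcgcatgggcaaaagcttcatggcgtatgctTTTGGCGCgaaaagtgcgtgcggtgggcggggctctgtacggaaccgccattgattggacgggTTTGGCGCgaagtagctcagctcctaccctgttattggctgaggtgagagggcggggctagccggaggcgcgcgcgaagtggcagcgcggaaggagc
Dtl: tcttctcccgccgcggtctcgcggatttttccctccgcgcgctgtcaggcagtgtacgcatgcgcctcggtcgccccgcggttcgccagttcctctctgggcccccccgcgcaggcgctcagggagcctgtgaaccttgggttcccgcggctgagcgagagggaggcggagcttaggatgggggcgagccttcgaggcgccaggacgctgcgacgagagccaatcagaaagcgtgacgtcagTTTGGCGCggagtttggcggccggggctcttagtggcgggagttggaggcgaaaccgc

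Upstream of replication, the list of G1 cyclins, CDK inhibitors and E2F factors had a median of -0.21 between the days. Of its 29 genes, 20 were lower. The median was -0.14 without day 9 replicate 3, -0.31 without day 9 replicate 2 and -0.06 without day 4 replicate 2. Cdk6, a G1 kinase that was called up at day 4 only, measured 111, 117 and 100 CPM at day 4 and 77.5, 63.8 and 70.8 CPM at day 9, against 33 to 47.7 CPM in controls. The 3 groups did not overlap, and the step of -0.63 had a 95% interval of -1.38 to 0.12, so the call at 1 day and not the other is not shown to differ. Myc, the growth regulator, measured 144, 178 and 171 CPM and then 132, 156 and 98 CPM, with overlap and a step of -0.35 (95% interval -0.85 to 0.14; -0.19 without replicate 3). At the resting end, Txnip, an inhibitor of glucose uptake, was at 308, 264 and 267 CPM and then at 211, 225 and 629.6 CPM, and controls were at 649.6 to 1122 CPM. All tumor libraries lay below all controls, with day 9 replicate 3 close to the lowest of them. It fell against control by 1.75 at day 4 and by 1.41 at day 9 (log2). Its step was 0.35 with all libraries and -0.35 without replicate 3, a change of sign in a value that was not called. The quiescence list had a median of 0.20 over 32 genes, and -0.01 without replicate 3.

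Interferon-stimulated genes were above control at both days and lower at day 9 than at day 4 for most members. The summed level was 8772, 8968 and 7944 CPM at day 4 and 7275, 8165 and 6254 CPM at day 9, and controls lay at 3754 to 4783 CPM. One day 9 library lay within the range of day 4 and the other 2 below it. Called against control were 11 of 48 genes at day 4 and 12 at day 9, all up (1.26% and 1.42% of all genes). Between the days 36 of 48 were lower, with a median of -0.22, and 11 (22.9%) had all 3 day 9 libraries below day 4, against 5.55% of all genes. Without day 9 replicate 2 the median was -0.39. Without day 9 replicate 3 it was -0.09 and 31 of 48 were lower. In that case 13 (27.1%) did not overlap on the lower side, against 11% of all genes with 3 and 2 libraries.

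Trim30a, a TRIM protein that dampens inflammatory signaling (chr7:104409025-104465193), was at 580.5, 555 and 484 CPM at day 4 and at 402, 482 and 318 CPM at day 9, against 162 to 224 CPM in controls. The 3 groups were apart, with day 9 in the middle. It rose by 1.57 (SE 0.18) at day 4 and by 1.14 (SE 0.18) at day 9, and the step of -0.43 (95% interval -0.82 to -0.04; -0.28 without replicate 3) did not pass correction, with an edgeR adjusted p of 0.901. Usp18, which turns interferon receptor signaling down, was at 254, 236 and 223 CPM and then at 266, 309.5 and 112 CPM, against 16.6 to 55.9 CPM in controls. Replicate 3 had less than the other day 9 libraries and the step was -0.05 with it and 0.28 without it. Rsad2, the antiviral enzyme viperin, did not overlap between the days, at 32.5, 36.7 and 32.2 CPM and 13.9, 24.9 and 16.4 CPM, and its step of -0.88 had a 95% interval of -3.12 to 1.37. Isg15, a ubiquitin-like modifier, did overlap, at 23.7, 22.1 and 19.7 CPM and 14.2, 25.5 and 7.25 CPM, with a step of -0.48 (SE 0.73; -0.13 without replicate 3). Ifi27l2a, a small mitochondrial protein gene, was at 122, 142 and 102 CPM at day 9 after 153, 39.8 and 63.2 CPM at day 4, while controls were at 0.625 to 6 CPM. The Oas and Ifit families hold members near-identical in sequence, so counts of single members are uncertain. How reads fell between the members was not tested.

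Of 35 interferon-stimulated promoters, 15 (42.9%) held the ISRE, against 3.04% of all promoters. Trim30a (chr7:104465144-104465443 on the minus strand) and Phf11b, a PHD finger gene (chr14:59341281-59341580 on the minus strand), are shown with it in capitals. Phf11b measured 193, 145 and 158 CPM at day 4 and 168, 216 and 131 CPM at day 9, with overlap and a step of 0.05 (0.22 without replicate 3), so 2 genes with the same letters lay on different sides of the list's median.
Trim30a: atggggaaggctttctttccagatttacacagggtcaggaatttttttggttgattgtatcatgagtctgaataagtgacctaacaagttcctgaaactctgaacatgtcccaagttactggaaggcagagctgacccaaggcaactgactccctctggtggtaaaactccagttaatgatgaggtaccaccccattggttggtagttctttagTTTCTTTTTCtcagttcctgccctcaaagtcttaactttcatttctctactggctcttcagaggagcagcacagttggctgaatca
Phf11b: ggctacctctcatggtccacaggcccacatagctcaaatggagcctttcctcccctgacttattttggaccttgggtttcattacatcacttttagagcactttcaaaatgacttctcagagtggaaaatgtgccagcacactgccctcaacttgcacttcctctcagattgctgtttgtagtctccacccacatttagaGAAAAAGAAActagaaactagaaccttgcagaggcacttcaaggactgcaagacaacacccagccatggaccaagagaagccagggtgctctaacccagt

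Genes of the interferon-gamma, GBP and antigen presentation list had a median step of 0.02 over 37 genes (-0.02 without replicate 3). Gbp3, a GTPase that acts on intracellular microbes, was at 208, 169 and 178 CPM and then at 200, 192 and 171 CPM, above the 67.2 to 109 CPM of controls, with a step of 0.02 (95% interval -0.39 to 0.43). Irf8, a transcription factor that interferon-gamma induces, measured 2152, 2186 and 2504 CPM and 1966, 2245 and 2145 CPM, a step of -0.11 (95% interval -0.60 to 0.39). The days overlapped for both.

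**Figure D3:**
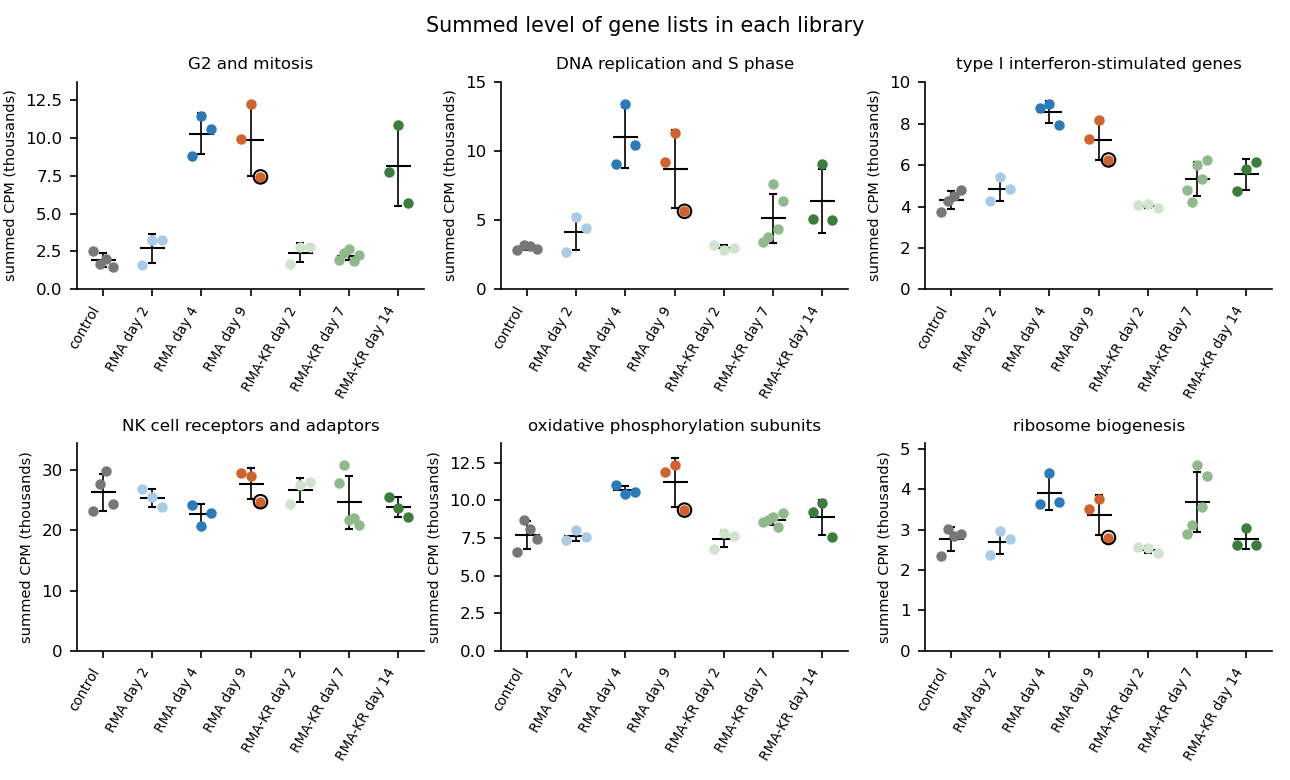
Summed normalized CPM of 6 gene lists in each of the 24 libraries, by group; bars are the mean ± SD and the circled point is RMA day 9 replicate 3. Mitotic genes reach 8785 to 11410 CPM at day 4 and 7424 to 12250 CPM at day 9, and the controls lie at 1473 to 2545 CPM.

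NK receptor genes lay on the other side. Their summed level was 24230, 20820 and 22940 CPM at day 4, 29570, 29010 and 24780 CPM at day 9 and 23260 to 29900 CPM in controls. All 3 day 9 libraries lay above all 3 of day 4 and within the range of the controls. Of 47 genes, 38 were higher at day 9, with a median of 0.26 against 0.07 over all genes, and 18 (38.3%) had all 3 day 9 libraries above day 4, against 5.25% of all genes. Without replicate 3 the median was 0.36 and 40 of 47 were higher. Against control, 1 gene was called at day 4, Klrc2 (down), and 2 at day 9, Klra7 and Klrg1 (both up), of 47 genes, where 1.65% and 1.79% of all genes were called. With DESeq2's size factors the list's median was 0.27.

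Klra7 (chr6:130218605-130233322), an inhibitory Ly49 receptor for MHC class I, was at 1206, 673 and 869 CPM at day 4, at 1883, 1812 and 1495 CPM at day 9 and at 555 to 903 CPM in controls. Each day 9 library lay above each of the others, and day 4 overlapped control. It rose at day 9 against control by 1.31 (log2, SE 0.21), and the step between the days was 0.92 (SE 0.23, 95% interval 0.45 to 1.38; 1.02 without replicate 3). Klra4, an activating Ly49 receptor, measured 1249, 849 and 936 CPM and then 1584, 1544 and 1425 CPM, with no overlap and a step of 0.59 (SE 0.18), while controls were at 1131 to 1602 CPM. The Klra genes are near-identical in sequence, so counts of single members are uncertain. Klrc2, an activating receptor that pairs with CD94, was at 329, 282 and 266 CPM and then at 406, 453 and 430.2 CPM, against 455 to 851 CPM in controls. It fell by 1.05 (log2) at day 4 and at day 9 lay above all day 4 libraries and below all controls, with a step of 0.55 (95% interval 0.05 to 1.06). Klrg1, an inhibitory receptor of mature NK cells, measured 771, 450.5 and 780.2 CPM and then 1086, 860.4 and 989 CPM, against 272 to 601 CPM in controls. Its day 9 libraries lay above all others, and its step of 0.55 had a 95% interval of -0.17 to 1.27. Klrd1, the CD94 chain itself, singled out after its values were seen, was at 1089, 724 and 902 CPM and then at 1366, 1375 and 1123 CPM, a step of 0.51 (95% interval 0.12 to 0.90), with controls at 981 to 1488 CPM.

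The smallest p of the whole comparison was at the T cell receptor beta locus. Trbc1, the first constant region (chr6:41538218-41539881), was at 204, 204 and 180.5 CPM at day 4, at 373, 344 and 325 CPM at day 9 and at 224 to 281 CPM in controls. The groups did not overlap, and day 4 lay below control and day 9 above it. Its step was 0.83 (log2, SE 0.18, 95% interval 0.44 to 1.21). With edgeR its adjusted p was 0.901, with DESeq2's defaults 0.00798, and over all alternatives it ran from 0.000535 to 1, at a fold change under 2 in each. Trbc2, the second constant region, whose coding sequence is near-identical, measured 96.3, 84.2 and 81 CPM and then 170.2, 123 and 114 CPM, a step of 0.64 (SE 0.18). Trbj1-1, a joining segment, measured 49.8, 64.1 and 42.5 CPM and then 88.4, 83.8 and 99.6 CPM, a step of 0.80 (SE 0.23). In both, all day 9 libraries were above all of day 4.

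The 12 T cell markers, to which Trbc1 belongs, lay higher at day 9 as a sum. Their summed level, as CPM of the total count, was 391.9, 386.6 and 342.5 at day 4, 645.0, 554.0 and 516.0 at day 9 and 443.1 to 590.8 in controls, and Trbc1 was the most abundant in each. At 0 counts were 4, 5 and 5 of the 12 at day 4 and 5, 5 and 1 at day 9. Counts of Cd3e, the CD3 chain that T cells need, were 11, 1 and 9 at day 4 and 0, 6 and 2 at day 9, and Cd3d and Cd3g, of the same complex, had at most 55 and 148 counts at day 4 and 200 and 212 at day 9. RMA cells are of the T lineage, and the part of T cell or lymphoma RNA in these values was not tested. Among other cell types, the macrophage and monocyte list summed to 19.6, 17.6 and 15.6 at day 4 and 34.4, 32 and 49.7 at day 9 on the same scale, with Cd68 the most abundant in each, with 5 to 11 of its 12 genes at 0 in the 6 libraries.

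Cd7, a surface protein of NK and T cells (chr11:121036747-121039418), was lowest at day 4. It was at 127, 132 and 125 CPM at day 4, at 287, 235 and 182 CPM at day 9 and at 258 to 549.5 CPM in controls. The days did not overlap, and day 9 overlapped control. It fell by 1.51 (log2, SE 0.26) at day 4, and its step was 0.87 (SE 0.26, 95% interval 0.33 to 1.42). Commd4, of a family that sorts membrane proteins, measured 76, 87.9 and 79.9 CPM and then 143, 133 and 125 CPM, a step of 0.72 (SE 0.18). Qrsl1, of the mitochondrial glutaminyl-tRNA amidotransferase, measured 17.5, 23.6 and 15.2 CPM and then 36.2, 38.3 and 46.8 CPM, a step of 1.11 (SE 0.35). Both lay higher in each day 9 library than in any of day 4. Spo11, the enzyme that cuts DNA in meiosis, was at 5.56, 5.3 and 3.21 CPM, 10.9, 19.7 and 61.2 CPM and, in controls, 7.62 to 78 CPM. Its step of 2.70 was 1.71 without replicate 3. Abcb4, a phospholipid transporter, had 0 counts in each day 4 library and 2, 3 and 72 at day 9, so it stands above 3 counts in replicate 3 only and no fold change is given.

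**Figure D4:**
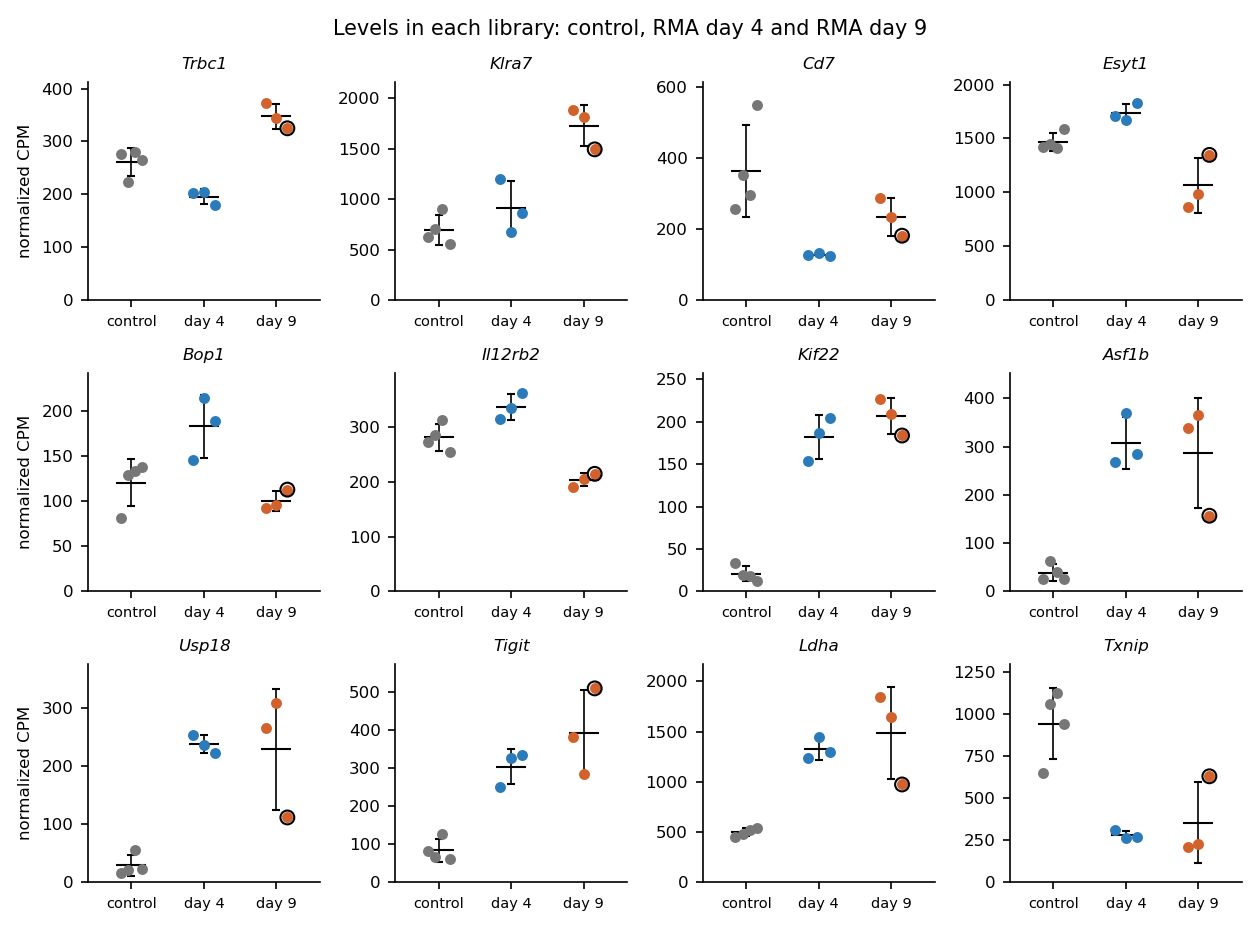
Normalized CPM of 12 genes in the 4 control, 3 RMA day 4 and 3 RMA day 9 libraries; bars are the mean ± SD and the circled point is day 9 replicate 3. Trbc1 and Klra7 at day 9 lie above both other groups, Esyt1 and Il12rb2 lie below them, and Kif22 and Asf1b overlap between the days above control.

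On the lower side at day 9, Esyt1, which tethers the endoplasmic reticulum to the plasma membrane (chr10:128509965-128525871), was at 1706, 1672 and 1827 CPM at day 4 and at 867, 981 and 1348 CPM at day 9, with controls at 1416 to 1592 CPM. Day 4 lay above control and day 9 below it, without overlap. Its step was -0.70 (SE 0.17, 95% interval -1.05 to -0.35; -0.91 without replicate 3). Il12rb2, the signaling chain of the interleukin-12 receptor, showed the same order, 314, 334 and 361 CPM, then 191, 205 and 214 CPM, and 254 to 313 CPM in controls, with a step of -0.72 (SE 0.20). Actb, the cytoskeletal actin, measured 30150, 36060 and 31940 CPM and then 18020, 20650 and 22310 CPM, a step of -0.69 (SE 0.20) without overlap. Ppm1g, a nuclear phosphatase, measured 441, 490.1 and 421 CPM and then 294, 258 and 279 CPM, a step of -0.70 (SE 0.18). Cnpy3, a chaperone of Toll-like receptors, measured 71.9, 70.9 and 53.2 CPM and then 25.5, 37.6 and 30.8 CPM, a step of -1.06 (SE 0.26), and was called by DESeq2's defaults with an adjusted p of 0.00564 (0.00564 to 1 over all alternatives). All 3 day 9 libraries lay below day 4 in each of these 5 genes. Med23, of the Mediator complex, was at 53.3, 57.9 and 49.6 CPM and then at 22.3, 16 and 17.3 CPM, a step of -1.53 (SE 0.40), and it fell against control at day 9 by 1.76 (log2). Nup133, of the nuclear pore, measured 67, 114 and 120.3 CPM and then 40.7, 36.7 and 33.4 CPM, a step of -1.44 (SE 0.42). For both genes the day 9 libraries lay below those of day 4. Zfp202, a zinc finger gene, had 82, 22 and 24 counts at day 4 and 0 at day 9, and Adrb1, the beta-1 adrenergic receptor, had 17, 24 and 3 counts and then 0. Both rest on few counts that differ between day 4 libraries, so no fold change is given.

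**Figure D5:**
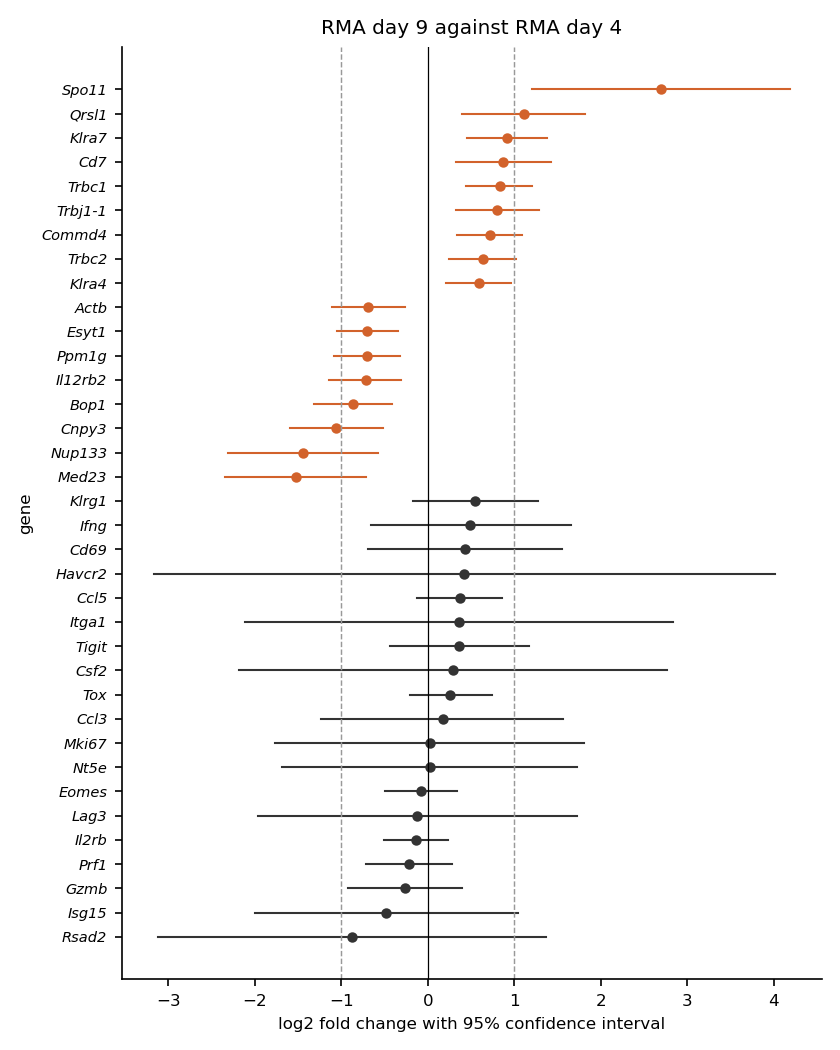
Log2 fold change of RMA day 9 against RMA day 4 with its 95% confidence interval, for 17 genes with the smallest p without overlap (orange; Abcb4, Zfp202 and Adrb1 are left out because a day has only 0 counts) and 19 genes named whatever their values (black). Dashed lines mark a 2-fold change.

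The summed level of 47 ribosome biogenesis genes was 3635, 4403 and 3695 CPM at day 4, 3520, 3749 and 2806 CPM at day 9 and 2347 to 3021 CPM in controls, with overlap between the days. Between the days 34 of 47 were lower, with a median of -0.17. Without day 9 replicate 2 the median was -0.26, and without replicate 3 it was -0.08, with 27 lower. With all libraries 7 (14.9%) did not overlap, all lower, against 5.55% of all genes. Bop1, a factor of the large ribosomal subunit, was at 145, 214 and 189 CPM, then at 92, 96 and 113 CPM, and at 81.7 to 138 CPM in controls. The days did not overlap, day 9 overlapped control, and the step was -0.87 (SE 0.22, 95% interval -1.32 to -0.41). The ATF4, amino acid and tRNA synthetase list had a median of -0.22, with 22 of 31 genes lower. Its median was -0.07 without day 4 replicate 2 and -0.35 without day 9 replicate 2. Psat1, of serine synthesis, measured 177, 253 and 209 CPM and then 161, 165 and 121 CPM, above the 41.7 to 63.1 CPM of controls at both days, with a step of -0.52 (95% interval -1.17 to 0.14).

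Of 61 oxidative phosphorylation subunits, 49 were higher at day 9, with a median of 0.19 (0.37 without replicate 3 and 0.08 without day 9 replicate 2). Without overlap were 2 (3.28%) on the higher side and 3 (4.92%) on the lower, against 5.25% and 5.55% of all genes. Without replicate 3 these were 35 (57.4%) and 3 (4.92%), against 12% and 11%. Their summed level was 11030, 10450 and 10580 CPM at day 4 and 11890, 12340 and 9358 CPM at day 9, against 6592 to 8696 CPM in controls, and replicate 3 was the lowest of the 6 libraries. Sdhd, of succinate dehydrogenase, was at 212, 204 and 196 CPM and then at 255, 267 and 223 CPM, higher in each day 9 library, a step of 0.28 (95% interval -0.23 to 0.79). Of 31 proteasome genes, 26 were higher, with a median of 0.21 (0.38 without replicate 3 and 0.10 without day 9 replicate 2). On each side 2 (6.45%) of the proteasome genes were without overlap, against 5.25% higher and 5.55% lower of all genes. Without replicate 3, the proteasome genes without overlap were 20 (64.5%) higher and 2 (6.45%) lower, against 12% and 11% of all genes. Called up against control were 0 of them at day 4 and 6 at day 9, where 1.26% and 1.42% of all genes were, a difference that was tested only as the step. Psma7, of the catalytic core, measured 254, 234 and 254 CPM and then 408, 399 and 241 CPM, with replicate 3 within the range of day 4 and the others above it, a step of 0.50 (95% interval -0.02 to 1.02; 0.71 without replicate 3). Ldha, of glycolysis, was at 1234, 1450 and 1301 CPM and then at 1844, 1643 and 974 CPM, above the 456 to 544 CPM of controls, with overlap between the days and a step of 0.16 (95% interval -0.24 to 0.57; 0.40 without replicate 3). The glycolysis list had a median of -0.07 over 25 genes (-0.16 without replicate 3), with 16 lower. Without overlap were 4 (16%), all lower, against 5.55% of all genes. In cholesterol and fatty acid synthesis the median was -0.14 over 29 genes (0.01 without replicate 3), and Scd2, a fatty acid desaturase, measured 62.1, 78.4 and 93.4 CPM and then 15.5, 49.5 and 41.3 CPM, below the 87 to 148 CPM of controls at day 9, with a step of -1.14 (SE 0.42).

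The list of granzymes, perforin and granule genes had a median of 0.02 over 24 genes, with 12 higher and 12 lower, and 6 (25%) without overlap on the higher side and 3 (12.5%) on the lower, against 5.25% and 5.55% of all genes. Without replicate 3 its median was 0.14, with 18 higher and 6 lower. Gzmb, granzyme B, was at 4490, 3973 and 4245 CPM and then at 3249, 4043 and 3328 CPM, against 811 to 2887 CPM in controls, with overlap and a step of -0.26 (95% interval -0.92 to 0.40). Perforin (Prf1) measured 5612, 6113 and 6808 CPM and then 5250, 5179 and 5501 CPM, lower in each day 9 library, with a step of -0.22 (95% interval -0.72 to 0.28). Serpinb9b, of the granzyme-inhibiting serpins, was at 558, 644 and 698 CPM and then at 952, 959 and 908 CPM, higher in each day 9 library, with a step of 0.57 (95% interval -0.34 to 1.48). Serpinb6b, from the same family, measured 1081, 757 and 902 CPM and then 1382, 1223 and 1399 CPM, a step of 0.55 (SE 0.22). Both serpins were called up against control at day 9 and not at day 4, while their steps between the days did not pass the test. Spp1, osteopontin, had the highest step among the genes called up at day 4, 131, 208 and 218 CPM and then 526, 395 and 236 CPM, against 5.89 to 24.1 CPM in controls. Its 3 groups did not overlap, replicate 3 of day 9 was close to day 4, and the step was 1.05 (95% interval -0.19 to 2.30; 1.31 without replicate 3).

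Among the cytokine genes named whatever their values, Ifng, interferon-gamma, measured 393, 337 and 374 CPM and then 542, 562 and 449 CPM, without overlap, with a step of 0.49 and a 95% interval of -0.66 to 1.65. Ccl3, a chemokine, was at 1786, 1438 and 1670 CPM and then at 1669, 1867 and 1958 CPM, with a step of 0.17 (95% interval -1.23 to 1.56). Ccl5, a further chemokine, was at 3789, 2314 and 3389 CPM and then at 4207, 3466 and 4553 CPM, with a step of 0.37 (95% interval -0.13 to 0.86). The libraries of the days overlapped for both chemokines. Csf2, GM-CSF, measured 1.94, 1.96 and 2.29 CPM and then 2.84, 2.33 and 2.42 CPM, with a step of 0.29 (95% interval -2.18 to 2.76). Il2rb, the shared beta chain of the interleukin-2 and interleukin-15 receptors, measured 2033, 2807 and 2780 CPM and then 2263, 2401 and 2251 CPM, a step of -0.14 (95% interval -0.51 to 0.23), so a 2-fold change lay outside the interval. Tnfrsf9, the costimulatory receptor 4-1BB, was at 681, 879.6 and 877 CPM and then at 739, 787 and 550 CPM, above the 146 to 242 CPM of controls, with overlap and a step of -0.23 (95% interval -0.91 to 0.45). The cytokine list had a median of 0.25 over 21 genes, the cytokine receptor list -0.11 over 43 and the trafficking receptor list 0.00 over 26. Leaving out 1 library gave 0.09 to 0.36 for cytokines, -0.18 to -0.05 for cytokine receptors and -0.05 to 0.12 for trafficking receptors.

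The summed level of the checkpoint list was 2116, 1825 and 2156 CPM at day 4, 2709, 2207 and 2785 CPM at day 9 and 1400 to 1864 CPM in controls, with all 3 day 9 libraries above day 4. Without its member Klrg1, a sum chosen after the values were seen, it was 1345, 1375 and 1376 CPM and then 1623, 1346 and 1796 CPM, which overlap. Its median step was 0.16 over 16 genes (0.11 without replicate 3), and 2 (12.5%) were without overlap on the higher side and 1 (6.25%) on the lower, against 5.25% and 5.55% of all genes. Tigit, an inhibitory receptor for CD155, was at 252, 329 and 334 CPM at day 4, at 383, 284 and 511 CPM at day 9 and at 61.2 to 128 CPM in controls. The days overlapped and lay above control. It rose by 1.85 (SE 0.37) at day 4 and by 2.22 (SE 0.37) at day 9, with a step of 0.36 (95% interval -0.44 to 1.17; 0.13 without replicate 3, its highest library). Lag3, an inhibitory receptor for MHC class II, measured 81.8, 78.3 and 87.1 CPM and then 67.4, 89.9 and 70.5 CPM, with a step of -0.12 and a wide 95% interval of -1.97 to 1.73. Havcr2, which encodes TIM-3, measured 4.85, 16.6 and 2.64 CPM and then 20.1, 7.26 and 4.83 CPM, with overlap and a 95% interval of -3.17 to 4.01. Nt5e, the ectonucleotidase CD73, was at 25, 14.3 and 6.08 CPM and then at 15.4, 7.35 and 23.4 CPM, with overlap and a step of 0.02 (95% interval -1.69 to 1.73; -0.41 without replicate 3). Pdcd1, which encodes PD-1, was not tested for want of counts, with 0 in 5 of the 6 libraries and 6 in day 9 replicate 2. Tox, a regulator of lymphocyte exhaustion, measured 51.2, 84.5 and 52.4 CPM and then 92.5, 69.6 and 63.6 CPM, a step of 0.26 (95% interval -0.21 to 0.74) that leaves out a 2-fold change.

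In the list of maturation and lineage factors the median was 0.08 over 32 genes. Eomes, a T-box factor of NK cell identity, was at 223, 192 and 161 CPM and then at 173, 181 and 192 CPM, with overlap and a step of -0.08 (95% interval -0.50 to 0.34), a range without a 2-fold change. Ly6c2, a surface marker of mature and activated lymphocytes, measured 356, 306 and 457 CPM and then 176, 279 and 154 CPM, below the 341 to 570.4 CPM of controls at day 9. Its step was -0.88 (SE 0.30; -0.71 without replicate 3) without overlap, and it fell against control by 1.14 (log2) at day 9. Itga1, the CD49a chain of tissue-resident cells, was at 7.06, 2.55 and 9.4 CPM and then at 8.86, 14.1 and 1.47 CPM, with overlap and a step of 0.36 (95% interval -2.11 to 2.84; 0.86 without replicate 3). Cd69, an early activation marker, was at 411, 345 and 382 CPM and then at 567, 459 and 503 CPM, higher in each day 9 library, with a step of 0.43 (95% interval -0.69 to 1.55). The immediate early and stress list had a median of 0.13 over 35 genes (-0.04 without replicate 3).

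The step was also set against the like step in the RMA-KR model, from day 7 to day 14, as a difference of the 2 steps. The days differ between the models, so the test compares stages as the study named them, intermediate and late, and not equal times. With edgeR, 0 of 17097 genes (0%) passed it, 1847 (10.8%) had an unadjusted p under 0.05, and the smallest adjusted p was 0.369; DESeq2 called 95 with its defaults and 14 with betaPrior=TRUE. Mitotic genes had the largest median difference among the 20 lists, -2.28 against 0.21 over all genes, and 83 of 85 were lower, 46 of them with an unadjusted p under 0.05. Their summed level was 1879 to 2649 CPM in the 5 RMA-KR libraries at day 7 and 5731 to 10860 CPM in the 3 at day 14, and the RMA model was at 8785 to 11410 CPM by its intermediate day. Kif22 had a difference of -2.70 (95% interval -3.83 to -1.57) and Plk1 of -4.01 (-5.68 to -2.35), while their own RMA steps were 0.18 and -0.55. The RMA-KR libraries of day 7 fell into 2 sets. Replicates 1 and 2 had counts in 16651 and 15922 genes and lay at 33.3 and 32.7 on the first principal component, and replicates 3 to 5 had 24676, 26285 and 24621 genes and lay at -37.9, -88.3 and -60.8. Their NK receptor sums were 27860 and 30830 CPM against 21800, 22080 and 20950 CPM, so the differences of other lists are not given. Their mitotic sums were 1935 and 2385 CPM against 2649, 1879 and 2300 CPM, which overlap.

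How far the libraries could separate the days is seen in their spread. Across genes, the correlation of log2 CPM was 0.923 to 0.964 between libraries of the same day and 0.927 to 0.954 between libraries of different days, and without replicate 3 it was 0.947 to 0.964 and 0.947 to 0.954. The squared difference of counts over counting error (chi-square per degree of freedom) was 17.9 to 51.5 within a day and 34.9 to 62.4 between days, and without replicate 3 it was 17.9 to 34.2 and 34.9 to 62.4, without overlap. The median SE of a step was 0.83 (log2) over all genes tested. It comes from a fit to all 24 libraries, so it also holds the spread of groups not compared here. Among named genes it differed, with 0.18 for Trbc1 and 0.89 for Lag3. Leaving out any of the 6 libraries, or fitting only the 6, left the count between the days at 0 with edgeR. Of the genes named above, 17 had an adjusted p under 0.05 between the days in at least 1 of 22 settings of edgeR or DESeq2, and each reached 1 in another. The lowest adjusted p of each gene came from 1 of 3 settings. With edgeR and no filter on low counts it was Actb 2.78e-11, Spo11 0.00216 and Klra7 0.00371. With DESeq2's defaults it was Cnpy3 0.00564, Commd4 0.0081 and Trbc2 0.0469. DESeq2 on the 6 libraries, a setting chosen after seeing the data, gave Med23 6.3e-05, Nup133 0.000535, Trbc1 0.000535 and Zfp202 0.00146. This setting also gave Il12rb2 0.00876, Ppm1g 0.00876, Cd7 0.0119, Bop1 0.0165, Qrsl1 0.0296, Serpinb9b 0.0406 and Spp1 0.0478. Zfp202 and Spo11 were called in 3 of the settings, Cnpy3 and Qrsl1 in 2, Med23, Nup133 and Spp1 in 1 and the others in 0.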

How the data were processed

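RNA of sorted splenic NK cells was sequenced in 24 libraries of 7 groups. The authors prepared libraries with a poly(A) mRNA kit (Lexogen V2), trimmed single reads with cutadapt 1.10, removed rRNA reads with Bowtie2 2.2.8, aligned to mm10 with STAR 2.5.3a and counted with HTSeq 0.6.1p1; the deposited raw columns hold counts, in whole numbers, for 45237 genes. Normalized and comparison columns were not used. Totals ran from 5138651 to 14863500 counts per library; floors of 3 counts per library cover counting error only. Genes passing filterByExpr (17097) were fitted over all 24 libraries with edgeR 4.0.16 (TMM, robust quasi-likelihood; common BCV 0.852) in R 4.3.3, with Benjamini-Hochberg adjustment over all genes. Genes were called at an adjusted p below 0.05 when they changed more than 2-fold; normalized CPM use a TMM-scaled total. Intervals are 95%. Tests were two-sided. DESeq2 1.42.0, limma 3.58.1, Python 3.11.15, pandas 2.3.3 and matplotlib 3.10.9 served as alternatives or tools. Calling was also tested on simulated data, from which no result is given here. Members and lists were chosen with earlier results of these data known. Named genes were: 10 per direction with the smallest p and no overlap, predicted genes left out, given as values since none was called; up to 8 called members per list; 20 fixed names; up to 8 per direction called at both days. Alternatives were other scaling, filters, tests, libraries in the fit, a replicate block and leaving out each library.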

Additional observations from a re-analysis of the deposited data

Results flagged for a closer look

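In groups of 4 or 5 libraries, Dixon's test set a value apart when the gap from the highest or lowest library to the next was large for the group's range. It was run on 118 genes, the summed level of 20 lists, the total count and the number of genes with a count, each in the controls and in RMA-KR day 7. It set apart 9 of these 280 groups of values (3.21%), and chance alone gives about 1 in 20 groups. All values are normalized CPM. In control replicate 1, Bop1 was low at 81.69 (others 128.8 to 138.0) and Atp5o was low at 31.60 (43.21 to 45.29), while Top2a was high at 102.6 (41.76 to 45.61) and Cenpa at 68.94 (23.15 to 29.70). In control replicate 3, Usp18 was high at 55.93 (16.63 to 23.30) and Ifi27l2a at 6.004 (0.625 to 0.7716). Havcr2 was at 0.09645 in control replicate 2, which is 1 count, and at 0 in the others, so a single read set it apart. In RMA-KR day 7, Pim2 was high in replicate 5 at 357.8 (179.8 to 227.0) and Csf2 in replicate 2 at 4.322 (1.933 to 2.568).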

How the results depend on the processing

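Between RMA day 9 and day 4 the count was 0 with edgeR under size-factor scaling, a mean count of at least 10, the replicate block, only the groups compared, an adjusted p alone and each library left out (0 to 0). It was 10 with no filter, 5 of them predicted genes high in day 9 replicates 2 and 3, and 42 with DESeq2's defaults, 39 of these at or under 3 counts per library in a day; the other 3 were Cnpy3, Spo11 and Qrsl1. Settings chosen after seeing the data gave 53 with DESeq2 on the 6 libraries (18 at that floor), 0 with edgeR on the 6 with a block or without each library, and 0 without RMA day 2 in the fit. For day 4 against control the 282 became 477 with no filter, 687 with DESeq2's defaults, 520 with betaPrior=TRUE and 762 with only the groups compared; leaving out a library gave 166 to 226. For day 9 against control the 306 became 472, 626, 529 and 573 under the same settings, and 127 to 457 with a library left out. For the difference between the models the 0 became 122, 95, 14 and 14, and 0 to 1 with a library left out. No gene named in the text reversed a call. In the step between the days, 2536 of the values of named genes differed from the main value by less than its SE. Whether their sign held was not counted. Further, 35 moved by more than that and 13 passed the threshold only under the alternative. Calls against control were less stable: named genes lost theirs in 99 cases at day 4 and 123 at day 9, gained one in 23 and 19, and moved in 8 and 8, with 1639 and 1618 the same. Of list medians, 530 kept within the spread of replicates and 143 did not. The cause of these differences was not tested. Replicate numbers of the days share only a number. The spread between libraries limits what 3 against 3 can show. The median SE of 0.83 (log2) was taken over all genes tested, from a fit to all 24 libraries. What can be detected differs by gene and is given by each gene's interval.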

Other observations

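Levels of immediate early and stress genes differed within groups. Their summed level was 4348 CPM in control replicate 4 and 16860 to 21680 CPM in the other controls, and 11190 to 16220 CPM in the 6 libraries of RMA day 4 and day 9. Gm10800 had 417, 315 and 353 counts at day 4 and 273, 1978 and 10351 at day 9, and Gm10801 had 326, 285 and 140 and then 138, 2129 and 8033. Both were picked after their values were seen. Granulocyte and mast cell markers summed to 191 counts in day 9 replicate 2, with Ngp the most abundant, and to 3 to 10 counts in the other 5 libraries.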
